A study of Mus musculus with 12 samples.

Results

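The neuronal pentraxins are a family of 3 genes, Nptx1, Nptx2 and Nptxr, and all 3 were found by symbol among the 31053 genes of the deposited list. Their UMI counts (unique molecular identifiers, 1 per captured RNA molecule) were followed across the cell classes of the mouse motor cortex, between control and trained mice, and between neurons with and without activity-regulated transcripts. Tissue came from the forelimb region (caudal forelimb area) of right primary motor cortex, and the RNA of single nuclei was read by droplet-based sequencing with 3′ capture. The 6 mice were 13 weeks old and all were on restricted water; the labels name no transgene or drug. The 3 control mice (mice 1, 3 and 5) received water in the home cage without training, and the 3 trained mice (mice 2, 4 and 6) earned part of it by pressing a lever with the left paw while head-fixed on days 11 to 13.

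NPTX1 and NPTX2 are secreted glycoproteins, and NPTXR is a membrane-anchored relative that can be released by cleavage. They assemble into mixed complexes at excitatory synapses, where they bind and cluster AMPA-type glutamate receptors, the receptors of fast excitatory transmission. Nptx2, also called Narp, was first described as an immediate-early gene whose transcription follows neuronal activity, and the protein released by pyramidal cells is known for its action at synapses onto Pvalb interneurons. Nptx1 and Nptxr are usually described as more steadily transcribed.

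In the GENCODE M21 annotation of mm10, Nptx1 (ENSMUSG00000025582) lies on the minus strand at chr11:119538719-119547753, Nptx2 (ENSMUSG00000059991) on the plus strand at chr5:144545902-144557478, and Nptxr (ENSMUSG00000022421) on the minus strand at chr15:79786351-79804766. Each has 5 exons in its longest coding transcript, and the coding sequences are 1299, 1290 and 1482 bases long. The coding sequences share 68.4% of aligned bases between Nptx1 and Nptx2, 67.2% between Nptx1 and Nptxr and 67.6% between Nptx2 and Nptxr. The longest identical run in any pair is 19 bases, so the 3 are related but not near-identical copies. The stretch of 60 coding bases that the 3 genes share most closely shows how far they differ even there. It lies towards the 3′ end of the coding sequence (bases 1011 to 1070 of Nptx1, 996 to 1055 of Nptx2 and 1191 to 1250 of Nptxr, counted from the first coding base), and capitals mark the 42 bases that are identical in all 3.
Nptx1: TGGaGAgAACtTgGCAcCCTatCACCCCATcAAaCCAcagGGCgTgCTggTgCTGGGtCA
Nptx2: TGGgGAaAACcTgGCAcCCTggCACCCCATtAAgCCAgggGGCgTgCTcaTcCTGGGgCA
Nptxr: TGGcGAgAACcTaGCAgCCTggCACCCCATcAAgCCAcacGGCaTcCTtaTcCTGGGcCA
Nptx1 and Nptx2 overlap no other annotated gene. Nptxr overlaps Npcd (ENSMUSG00000089837, chr15:79789675-79834237), which lies on the same strand and shares 890 of the 5170 exonic bases of Nptxr (17.2%). The last 3324 exonic bases at the 3′ end of Nptxr lie beyond the end of Npcd. How reads from the shared part were counted is not given in the sources used here. By class, Npcd itself averaged between 2.29 and 16.9 CPM (the counts of a gene scaled to a common total per sum). Nptxr averaged between 11.1 and 79.2 CPM.

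After filtering, 49292 nuclei of 51926 barcodes were kept, between 5265 and 11817 per mouse, with a median of 5215 to 7205 UMIs per nucleus. Before filtering, the barcodes held 46798359 to 91495029 UMIs per mouse. The mean mitochondrial share was 0.039% to 0.109% and was highest in trained mouse 2. Of 51613 barcode sequences, 311 occurred in more than 1 mouse. Clusters were named from marker genes, and each name stands for "-like"; IT, ET, NP and CT denote intratelencephalic, extratelencephalic, near-projecting and corticothalamic neurons, and OPC oligodendrocyte precursors. Names resting on 1 leading marker are L5 IT (Deptor), L5 ET (Npr3) and L6b (Ctgf). The L5 IT cluster also had 1 L4/5 IT marker, Il1rapl2, as its first leading gene. The higher mean marker fold decided that name. Cluster 10, 1729 nuclei with Slc17a7 at 252 CPM against 7.71 CPM for Gad1 and Gad2 together and with Scn7a, Hgf and Cpne4 among its leading genes, met no name and is called by its number. Cluster 18 drew 395 of its 417 nuclei from trained mouse 6; it was fitted as no class and entered the sum of all nuclei only. The pentraxins and the activity genes were left out of the genes used for clustering. With 19 classes and the sum of all nuclei, 20 sums per mouse were fitted, and the mouse was the replicate throughout.

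Each pentraxin had its own order of classes. Nptx1 was highest in L6 CT neurons, Nptx2 in L5 IT neurons, and Nptxr in cluster 10 and L4/5 IT neurons, while L5 ET neurons were at the bottom or next to the bottom of all 3 orders. In L6 CT neurons control mice 1, 3 and 5 had 133, 246 and 199 CPM of Nptx1, and trained mice 2, 4 and 6 had 147, 232 and 204, a mean of 194 ± 45.1 CPM (SD, n = 6). Every mouse was above the highest Nptx1 level of any other fitted class, which was 122 CPM in L5/6 NP neurons. Among neurons, L5/6 NP neurons followed with 89.6 ± 23.8 CPM, L6 IT neurons with 81.4 ± 20.8, L4/5 IT neurons with 67.4 ± 14.9, L5 IT neurons with 62.8 ± 15.0 and L2/3 IT neurons with 50.9 ± 6.95 (each SD, n = 6). Cluster 10 was at 36.6 CPM, the 4 interneuron classes at 9.97 to 13.4 CPM, and L5 ET neurons at 6.87 ± 1.55 CPM.

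For Nptx2, the activity-regulated member, L5 IT neurons of control mice 1, 3 and 5 had 31.7, 52.2 and 59.3 CPM, those of trained mice 2, 4 and 6 had 72.9, 74.6 and 57.8, and the mean was 58.1 ± 15.7 CPM. Among the other neurons, L6 CT neurons had 37.8 ± 10.6 CPM, L6 IT neurons 28.9 ± 7.95, L4/5 IT neurons 21.7 ± 8.00, L2/3 IT neurons 19.4 ± 6.84 and cluster 10 16.5 ± 8.68 CPM. Among interneurons Vip neurons were highest with 12.3 ± 4.95 CPM, followed by Sst neurons with 5.58 CPM. Pvalb, Lamp5, L5 ET and L5/6 NP neurons were all between 2.38 and 3.14 CPM. L5/6 NP neurons thus stood second for Nptx1 and among the lowest for Nptx2.

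For Nptxr, the membrane-anchored member, cluster 10 had 53.7, 104 and 87.4 CPM in control mice 1, 3 and 5, against 65.3, 94.1 and 70.7 in trained mice 2, 4 and 6. The mean of 79.2 ± 19.1 CPM equalled that of L4/5 IT neurons (79.2 ± 16.1 CPM) to 3 digits. L2/3 IT, L6 IT, L5 IT and L5/6 NP neurons were between 47.9 and 57.1 CPM. Vip interneurons had 37.9 ± 6.88 CPM, Lamp5 interneurons 27.1, Sst interneurons 20.1 and Pvalb interneurons 11.6 CPM. L6 CT neurons, the highest class for Nptx1, had 13.9 ± 4.11 CPM of Nptxr. Control mouse 1 had the lowest value of the controls for Nptx1 in L6 CT neurons, for Nptx2 in L5 IT neurons and for Nptxr in cluster 10.

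**Figure D1:**
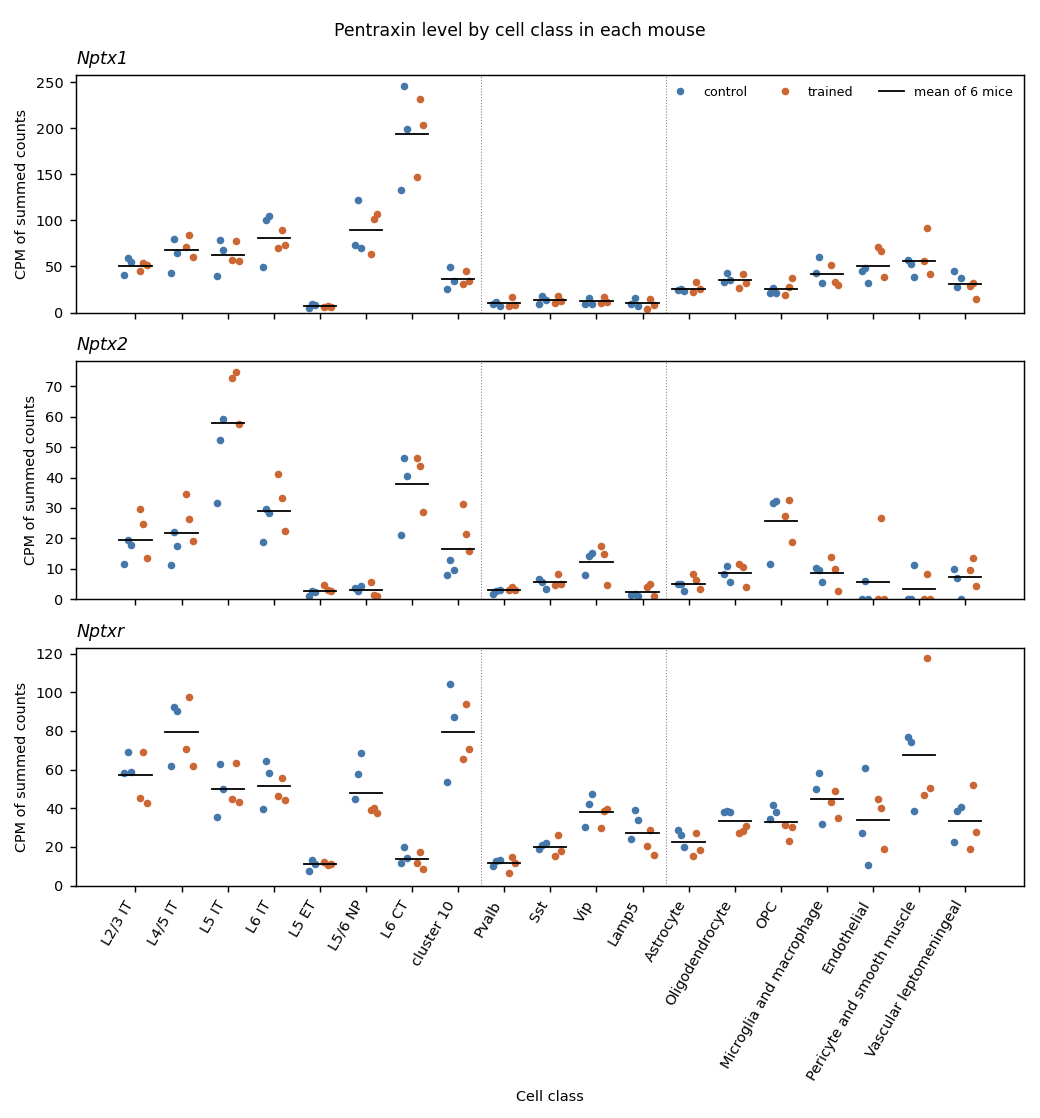
Level of each pentraxin (CPM of counts summed per mouse and class, linear axes starting at 0) in 19 cell classes; each point is 1 mouse, blue for control and orange for trained, and the bar is the mean of 6 mice. Nptx1 stands out in L6 CT neurons at 133 to 246 CPM, Nptx2 in L5 IT neurons at 31.7 to 74.6 CPM, and Nptxr is lowest in L5 ET neurons.

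Of 54 neighbouring pairs of classes, 6 had the same order in all 6 mice. For Nptx1 these were L6 CT over L5/6 NP neurons, OPC over Sst and Vip over Pvalb interneurons; for Nptx2, L5 IT over L6 CT and L6 CT over L6 IT neurons; and for Nptxr, Sst interneurons over L6 CT neurons. Each of these pairs gave p = 0.031 by an exact two-sided sign-flip permutation test, the smallest that 6 mice allow, and an adjusted p of 0.281 over the 54 pairs, so no neighbour step passed. With that smallest p, steps could pass the adjustment only if most pairs reached it, so the test says little about single steps. The largest of the 6 was L6 CT over L5/6 NP neurons for Nptx1, with a mean log2 difference of 1.11 ± 0.24 (SD, n = 6).

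Outside neurons, Nptx1 was at 25.6 to 56.5 CPM and Nptxr at 22.6 to 67.3 CPM in glial and vascular classes, whose nuclei hold fewer UMIs than neurons. In droplet data free RNA can give UMIs in nuclei that do not express a gene; its level was not measured here. To compare classes of unlike depth, nuclei were thinned to 2000 UMIs each and shallower nuclei were left out. That kept 5228 of 5237 L6 CT nuclei, but 2213 of 6067 oligodendrocytes and 647 of 2611 microglia and macrophages. The shares in these glia therefore describe their deeper nuclei only. A Nptx1 UMI was then found in 31.1% of L6 CT nuclei (23.6% to 39.0% between mice, 74.2% without thinning) against 5.55% of oligodendrocytes, which were taken as the background. For Nptx2 the share was 10.9% of L5 IT nuclei (40.5% without thinning) against 1.63% of oligodendrocytes, and for Nptxr 14.3% of cluster 10 (58.2% without thinning) against 5.50%. Median depths were 6948 to 9716.5 UMIs per mouse in L6 CT, 10404 to 15005 in L5 IT, 10767 to 13976 in cluster 10 and 1572 to 1992.5 in oligodendrocyte nuclei. The shares in microglia and macrophages, a second background, were 6.02%, 1.12% and 6.52% for Nptx1, Nptx2 and Nptxr. L5 ET neurons (1.69%, 0.824% and 2.27% in the same order), Pvalb interneurons (1.97%, 0.531% and 2.56%) and Sst interneurons (2.93%, 1.26% and 4.13%) were below the oligodendrocyte share for all 3 genes after thinning. The same holds for Nptx1 in all 4 interneuron classes (1.79% to 2.93%), for Nptx2 in L5/6 NP neurons (0.555%) and Lamp5 interneurons (0.745%) and for Nptxr in L6 CT neurons (3.09%). Without thinning, the shares in L5 ET nuclei were 11.6%, 4.26% and 19.6%, in Pvalb 8.47%, 2.35% and 10.2%, and in Sst 9.87%, 4.65% and 14.9%. Nptxr in L6 CT nuclei was at 11.0%. Those in oligodendrocytes were lower, at 6.35%, 1.60% and 5.94%, from shallower nuclei. Thinning removes UMIs of every origin from deep nuclei, so these shares do not separate expression from free RNA.

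Among glial classes, OPC had the highest Nptx2 level. They had 25.7 ± 8.70 CPM of Nptx2 against 8.49 ± 3.08 CPM in oligodendrocytes, while Nptx1 was at 25.6 and 35.2 CPM in the same classes. The thinned share of nuclei with an Nptx2 UMI was 4.50% in OPC (2.90% to 7.01% between mice, 7.51% without thinning), and OPC had a median of 2660.5 to 3610 UMIs per mouse.

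Across the 19 classes, the gene with the pattern most like Nptx1 was Tbr1, a transcription factor of deep-layer glutamatergic neurons, with Pearson's r = 0.933 on log2(CPM + 1) of mean levels among 12515 genes. Kcnv1, a modulatory potassium channel subunit, Trbc2 and Slc17a7, the vesicular glutamate transporter, followed with r between 0.799 and 0.862. For Nptx2 they were Rasgef1b (0.817), Cpne9, Ypel1 and Fbxo27 (0.750), and for Nptxr Terf1 (0.783), the calcium sensor gene Hpca, Camk2n1 and Grm2 (0.728). Between members r was 0.568 for Nptx1 and Nptx2, 0.469 for Nptx1 and Nptxr and 0.359 for Nptx2 and Nptxr. These correlations describe 19 classes that share their libraries and that differ in depth.

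Nptx2 was higher in neurons that carried activity-regulated transcripts, in every glutamatergic class that could be tested. Nuclei thinned to 2000 UMIs were called activity-high with at least 3 UMIs of a list of 20 immediate-early genes (among them Fos, Arc, Npas4, Egr1 and Nr4a1) and silent with 0 UMIs. No pentraxin is in that list, and its genes were left out of the results. The unthinned counts of both kinds of nuclei were then compared within each mouse. In L5 IT neurons Nptx2 was at 23.6, 30.4 and 35.2 TMM-scaled CPM (scaled between sums by edgeR) in silent nuclei of control mice 1, 3 and 5 and at 59.1, 92.6 and 88.0 in their activity-high nuclei. In trained mice 2, 4 and 6 the silent nuclei had 42.5, 41.4 and 34.3 and the activity-high nuclei 132, 128 and 131 TMM-scaled CPM. All 6 activity-high values lay above all 6 silent values. The log2 fold change of high over silent nuclei was 1.59 ± 0.09 (SE, adjusted p = 4.65e-20 by edgeR).

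In L2/3 IT neurons, Nptx2 rose from a mean of 10.0 in silent to 63.5 TMM-scaled CPM in activity-high nuclei (log2 fold change 2.55 ± 0.15, adjusted p = 2.88e-17 by edgeR). The silent nuclei ranged from 6.59 to 14.2 and the activity-high nuclei from 37.3 to 95.6 TMM-scaled CPM over the 6 mice, without overlap. In L6 CT neurons it rose from 18.5 to 65.8 (1.81 ± 0.12, adjusted p = 2.71e-15), again without overlap. L6 IT neurons (2.41), L4/5 IT neurons (1.41) and cluster 10 (0.89) also passed. The change was upward in 6 of 6 mice in each class except cluster 10, where it was upward in 5 of 6. Cluster 10 had the smallest of these changes, with an adjusted p of 0.0165 by edgeR. Its control mice 1, 3 and 5 differed little, with 8.61, 15.5 and 8.83 in silent and 8.00, 16.7 and 11.8 in activity-high nuclei. Its trained mice 2, 4 and 6 had 23.0, 10.4 and 9.91 in silent and 44.4, 37.8 and 35.4 TMM-scaled CPM in activity-high nuclei.

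Nptxr rose with activity as well, with a smaller fitted fold change than Nptx2 in each of the 6 classes. In L4/5 IT neurons silent nuclei had 59.7, 70.0 and 79.4 TMM-scaled CPM in control mice 1, 3 and 5 and 60.3, 66.5 and 49.6 in trained mice 2, 4 and 6. In activity-high nuclei the controls ranged from 85.5 to 109 and trained mice 2, 4 and 6 had 115, 123 and 87.9, all above every silent value (log2 fold change 0.67 ± 0.09, adjusted p = 3.23e-08 by edgeR). The change was 0.65 ± 0.12 in cluster 10 (5 of 6 mice, adjusted p = 0.000393 by edgeR) and 0.66 ± 0.13 in L6 IT neurons (6 of 6 mice, adjusted p = 0.000145). L2/3 IT (0.42), L5 IT (0.40) and L6 CT neurons (0.44) passed too. The last did so in 5 of 6 mice, with an adjusted p of 0.0477 by edgeR and a thinned share below that of oligodendrocytes.

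Nptx1 passed in 1 glutamatergic class. In L4/5 IT neurons it went from 60.8 to 73.6 TMM-scaled CPM, higher in 6 of 6 mice (log2 fold change 0.27 ± 0.09, adjusted p = 0.0287 by edgeR). That call was lost in 8 of 11 other settings, the omission of control mouse 1 or 5 or of trained mouse 2 or 4 among them, with log2 fold changes between 0.22 and 0.34. In L6 IT neurons it was lower in the activity-high nuclei of all 6 mice, by a log2 fold change of -0.27 ± 0.11 that did not pass (adjusted p = 0.0974 by edgeR). In L2/3 IT neurons the value was -0.14 ± 0.10 (adjusted p = 0.405 by edgeR).

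In all, 13 of 20 member-by-class tests passed: Nptx2 and Nptxr in 6 of 6 glutamatergic classes each and Nptx1 in 1 of 6. Neither Nptx1 nor Nptxr passed in astrocytes, and Nptx2 had too few counts there. As background, the share of all genes tested that edgeR called higher in activity-high nuclei was 10.5% in L2/3 IT, 9.27% in L4/5 IT, 7.24% in L5 IT, 10.1% in L6 IT, 14.7% in L6 CT, 4.26% in cluster 10 and 0.509% in astrocytes. On thinned counts, 4 of the 13 calls were made: Nptx2 in L2/3 IT (1.93), L5 IT (1.35) and L6 CT neurons (1.94) and Nptxr in L4/5 IT neurons (0.81). Nptx2 in L4/5 IT and L6 IT neurons and in cluster 10 and Nptxr in L6 CT neurons did not pass the filter on low counts there. The other calls were tested and lost: Nptxr in L2/3 IT (0.37), L5 IT (0.18) and L6 IT neurons (0.21) and cluster 10 (0.58), and Nptx1 in L4/5 IT neurons (0.25). Nptxr thus kept 1 of its 6 calls. The share of all genes called on thinned counts is not given here, so these losses cannot be set against those of other genes.

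**Figure D2:**
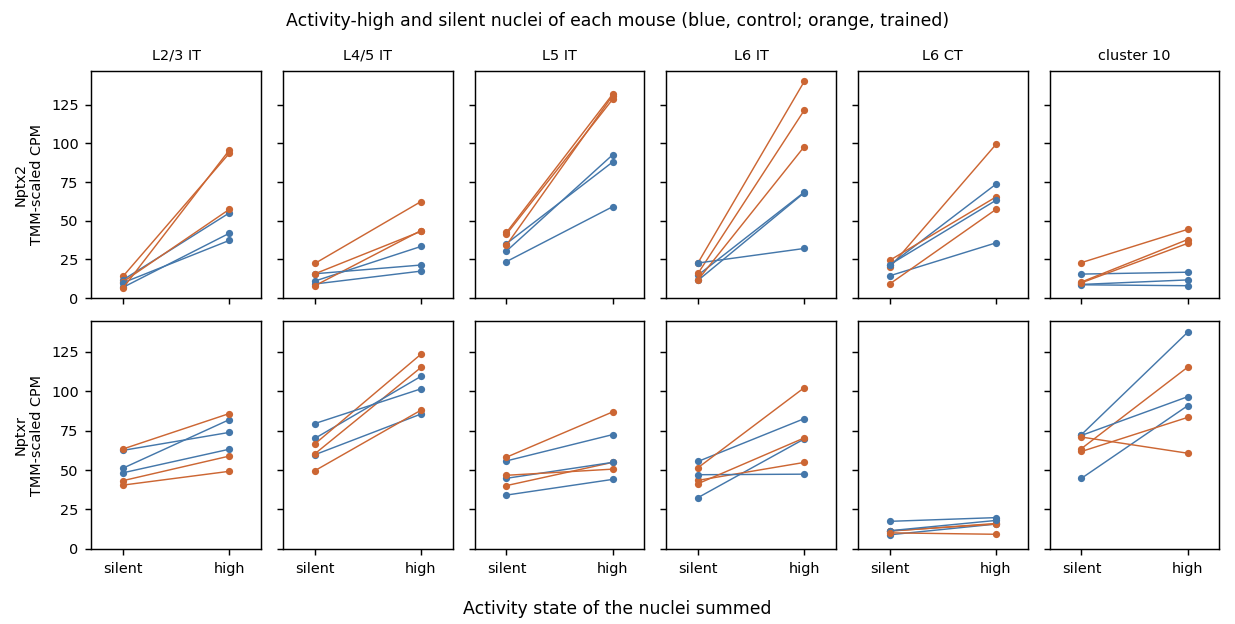
Nptx2 (upper row) and Nptxr (lower row) in silent and activity-high nuclei of 6 glutamatergic classes (TMM-scaled CPM, linear axes starting at 0); each line joins the sums of 1 mouse, blue for control and orange for trained. Nptx2 lines climb for 6 of 6 mice in every class except cluster 10 (5 of 6), and Nptxr lines for 6 of 6 except in L6 CT neurons and cluster 10 (5 of 6 each).

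Activity-high and silent nuclei also differed in quality measures. Activity-high nuclei had the lower median UMI count in all 6 mice in L5 IT neurons (means of 11580 and 13564 UMIs), L6 IT neurons and cluster 10. Summed oligodendrocyte markers were higher in activity-high nuclei of all 6 mice in L2/3 IT (126 against 78.3 CPM), L5 IT (152 against 115 CPM) and L6 IT neurons (145 against 74.6 CPM). Summed astrocyte markers were higher in activity-high nuclei of all 6 mice in L4/5 IT (542 against 455 CPM), L6 IT (228 against 171 CPM) and L6 CT neurons (642 against 522 CPM). The mitochondrial share was higher in activity-high L6 IT and cluster 10 nuclei of all 6 mice. Gad1 and Gad2 together had means of 5.69 to 11.6 CPM in both kinds. The part of these differences in the pentraxin result was not tested. The classes held 404 (L6 IT) to 1685 (L6 CT) activity-high nuclei; near the threshold, 312 L5 IT nuclei had exactly 3 activity UMIs and 560 had exactly 2, which placed them in neither kind.

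Over finer steps of activity the mean level of Nptx2 was highest at the top step in all 6 glutamatergic classes tested for activity. L5 ET and L5/6 NP neurons had too few activity-high nuclei to be tested. In L5/6 NP neurons the Nptx2 mean was 6.75 UMIs per 1000 nuclei at 0 activity UMIs and 3.88 at 1. It was 0 in every mouse at 2 and at 3 to 4. At 5 or more it was 33.3, with single mice between 0 and 200 (SD 81.6), so it does not show a rise with activity. L5 ET neurons had 17.4 at 3 to 4 and 9.80 at 5 or more. Both had as few as 2 top-step nuclei in a mouse. Per 1000 thinned L6 CT nuclei there were 35.8 Nptx2 UMIs at 0 activity UMIs, 66.4 at 1, 82.5 at 2, 96.1 at 3 to 4 and 226 at 5 or more. L5 IT neurons went from 78.3 through 115, 127 and 148 to 313 UMIs per 1000 nuclei. L2/3 IT neurons stayed between 26.6 and 34.4 up to 2 activity UMIs and reached 90.7 at 3 to 4 and 188 at 5 or more. In L4/5 IT neurons and cluster 10 the steps in between had no steady order. Nptx1 in L6 CT neurons stayed between 375 and 423 UMIs per 1000 nuclei. Nptxr in L4/5 IT neurons went from 114 through 135, 141 and 184 to 218. In the 6 tested classes the top step held as few as 5 nuclei in a mouse, so its single-mouse values are coarse.

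**Figure D3:**
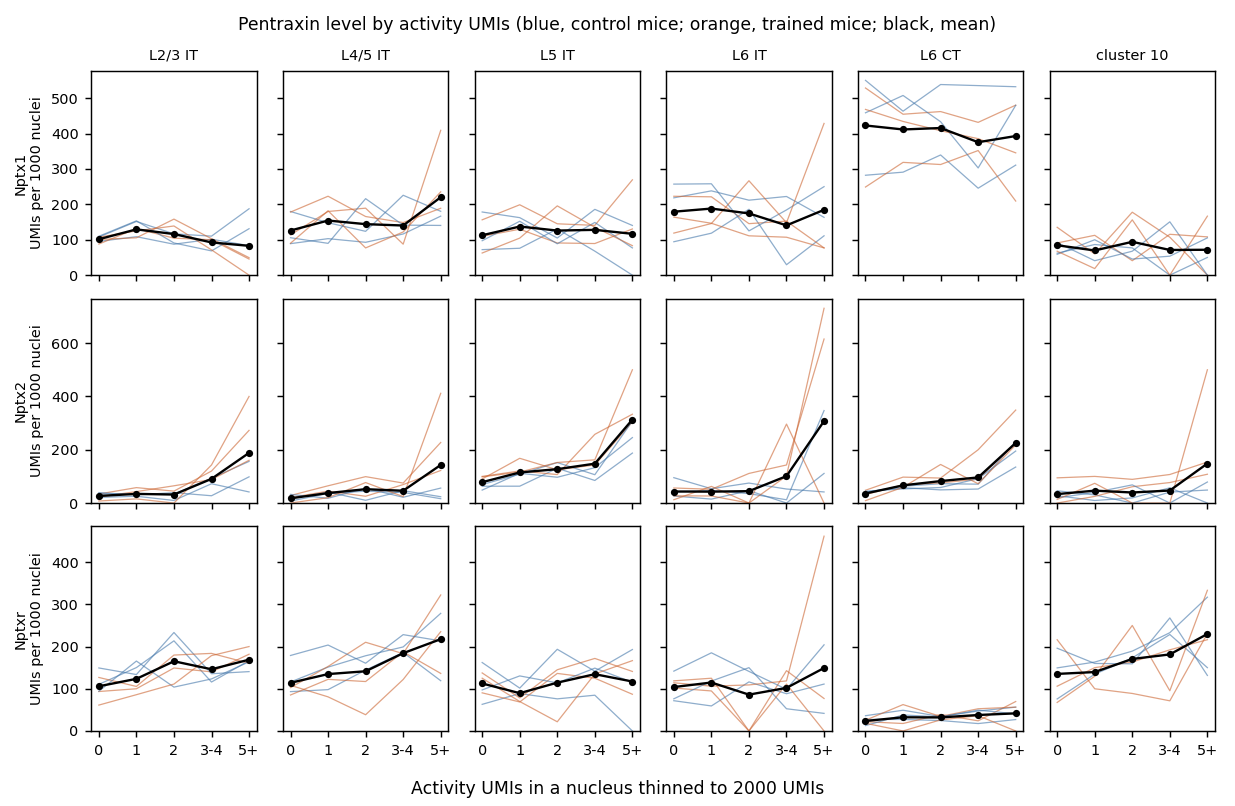
UMIs of each pentraxin per 1000 nuclei, after thinning to 2000 UMIs, against the number of activity UMIs of the nucleus in 6 glutamatergic classes; thin lines are single mice (blue control, orange trained) and the black line is their mean. Nptx1 lies at 375 to 423 in L6 CT neurons at every step, and Nptx2 reaches 226 there and 313 in L5 IT neurons in the top step.

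In the same L5 IT nuclei most listed delayed activity genes were called higher, and no AMPA receptor subunit was. Of 20 listed delayed activity-regulated genes tested in L5 IT neurons, 17 were called higher and 0 lower, with a median log2 fold change of 0.91 against -0.01 over all genes tested. They include Homer1, a postsynaptic scaffold gene (1.26), Pcsk1, a prohormone convertase (1.67), Tiparp (1.74), the neurotrophin Bdnf (1.88) and the growth-arrest gene Gadd45g (2.80); Nptx2 at 1.59 equalled Scg2 at 1.59. In the other classes 18 of 20 tested were called higher and 1 lower in L2/3 IT, 15 of 18 higher and 1 lower in L4/5 IT, 17 of 19 higher and 1 lower in L6 IT, and 16 of 19 in L6 CT and 11 of 16 in cluster 10 higher and 0 lower. As background, the share of all genes called lower in activity-high nuclei was 4% in L5 IT, 4.81% in L2/3 IT, 6.43% in L4/5 IT, 5.07% in L6 IT, 11% in L6 CT and 1.91% in cluster 10. Of the 4 AMPA receptor subunits, Gria3 was called lower in L5 IT neurons (-0.17 ± 0.04, adjusted p = 0.00415 by edgeR) and none higher. Among 13 auxiliary proteins of these receptors tested, Shisa6 was called higher (0.60) and Gsg1l lower (-0.99). Of 21 other secreted organisers and their receptors, C1ql3, Sparcl1, Olfm1, Cbln4 and Nrxn2 were called higher (0.21 to 0.80) and Gpc6, Olfm3 and Adgrb3 lower (-0.31 to -0.13). Adam17, which encodes a protease that releases NPTXR, and Adam10 were not called, nor was any perineuronal net gene.

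Between trained and control mice no pentraxin passed in any class. edgeR tested 49 member-by-class sums, 17 for Nptx1, 13 for Nptx2 and 19 for Nptxr, and called 0, and with DESeq2 0 passed. An unadjusted p under 0.05 was reached by 0, 3 and 2 of them by edgeR, and the share of all genes under it is not given here. Among these, by that p, Nptx2 was number 202 of 13381 genes in L5 IT and 166 of 13084 in L4/5 IT neurons. Nptxr was number 58 of 10294 in L5/6 NP neurons. As background, edgeR called 0% of the genes tested in every sum except astrocytes (0.17%) and microglia and macrophages (0.128%). Within that limit the 3 genes had different signs. Nptx2 was higher in trained mice in 13 of 13 sums, with log2 fold changes of 0.12 to 1.20; Nptxr was lower in 15 of 19, between -0.53 and 0.13; and Nptx1 was higher in 11 of 17, between -0.46 and 0.26. The sum of all nuclei is among them and shares its counts with the classes. All sums come from the same 6 mice, so their signs are not independent. In the sum of all nuclei, Nptx2 was at 13.1, 22.1 and 19.3 TMM-scaled CPM in control mice 1, 3 and 5. Trained mice 2, 4 and 6 had 29.4, 28.1 and 19.0 there, with overlap.

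The largest Nptx2 difference was in cluster 10. Control mice 1, 3 and 5 had 8.12, 12.7 and 9.42 TMM-scaled CPM and trained mice 2, 4 and 6 had 32.0, 21.4 and 16.3, with no overlap. The means were 10.1 ± 2.36 and 23.2 ± 8.00 (SD, n = 3 each) and the log2 fold change 1.20 ± 0.26 (SE, unadjusted p = 0.00064 and adjusted p = 0.765 by edgeR). It ranged from 0.91 without trained mouse 2 to 1.43 without control mouse 3. With the mitochondrial share as a covariate it was 0.87. Summed activity genes in cluster 10 were between 591 and 1248 CPM for controls and between 562 and 1053 CPM for trained animals, which overlapped.

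In L5 IT neurons the Nptx2 values of control mice 1, 3 and 5 were 32.3, 51.7 and 57.3 TMM-scaled CPM, and those of trained mice 2, 4 and 6 were 73.3, 75.1 and 59.4. The highest control and the lowest trained mouse were close, and on CPM without that scaling they overlapped (59.3 and 57.8). The log2 fold change was 0.57 ± 0.18 (unadjusted p = 0.0102, adjusted p = 0.673 by edgeR), and 0.34 without control mouse 1. It passed without the filter on low counts (adjusted p = 0.0211 by edgeR) and with the median UMI count of each mouse as a covariate (0.87, adjusted p = 0.019 by edgeR). Cluster 10 passed without the filter (adjusted p = 4.6e-05 by edgeR). The share of all genes that passed under these settings is not given here, so the passes cannot be set against it. DESeq2 gave an adjusted p of 0.274 in L5 IT neurons and left cluster 10 without one.

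In L4/5 IT neurons Nptx2 ranged from 11.5 to 21.6 TMM-scaled CPM in control mice, and trained mice 2, 4 and 6 had 35.2, 26.1 and 19.6, with overlap (0.69 ± 0.26, unadjusted p = 0.0228, adjusted p = 1.00 by edgeR). Without trained mouse 2 the value was 0.44. The trained mice lay above all controls in L5 IT neurons, L5 ET neurons and cluster 10, and the shares of all genes with that order were 5.99%, 5.21% and 4.62%. In L5 ET neurons the whole range was 0.887 to 4.50 TMM-scaled CPM, and the thinned share was below that of oligodendrocytes.

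**Figure D4:**
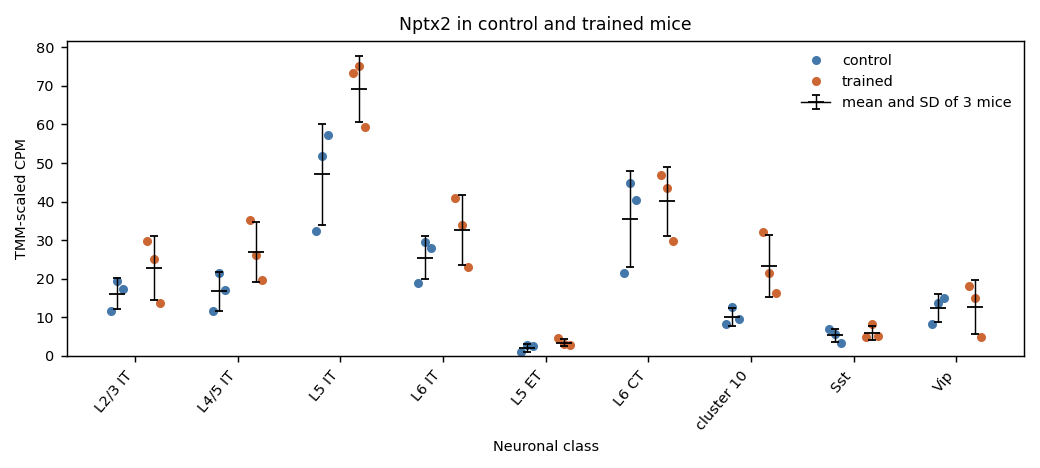
Nptx2 in the 9 neuronal classes in which it passed the filter on low counts (TMM-scaled CPM, linear axis starting at 0); points are mice, blue for control and orange for trained, and bars give the mean and SD of 3 mice. Cluster 10 has means of 10.1 in control and 23.2 in trained mice without overlap, and L5 IT neurons 47.1 and 69.3 with the groups nearly touching; neither difference passed over all genes.

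Whether the training difference depended on the class was tested directly. Over 8 glutamatergic classes the interaction gave F = 4.20 for Nptx2 (unadjusted p = 0.00115, adjusted p = 0.552 by edgeR) and no member passed, against 0% of all genes. Without the filter on low counts Nptx2 passed (adjusted p = 0.0115 by edgeR), and the share of all genes that passed in that setting is not given here. Over 4 interneuron classes no member passed, against 0.0809% of all genes.

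Nptxr was lower in trained mice in L5/6 NP neurons, at 45.9, 56.7 and 69.4 TMM-scaled CPM in control mice 1, 3 and 5 and 40.5, 39.5 and 39.2 in trained mice 2, 4 and 6 (log2 fold change -0.51 ± 0.19, unadjusted p = 0.0176, adjusted p = 0.999 by edgeR). In oligodendrocytes it was at 38.7, 38.8 and 38.3 in control and 27.3, 28.3 and 31.8 TMM-scaled CPM in trained mice (-0.42 ± 0.17, unadjusted p = 0.0272, adjusted p = 0.994 by edgeR). Both comparisons, and that in OPC, had every trained mouse below every control, against 3.65%, 4.97% and 4.61% of all genes in L5/6 NP neurons, oligodendrocytes and OPC. Oligodendrocytes were the class taken as background above, and the thinned share of OPC nuclei with an Nptxr UMI was 6.04%, between those of oligodendrocytes and microglia. Lamp5 interneurons gave -0.53 ± 0.27 (unadjusted p = 0.0636, adjusted p = 0.999 by edgeR) with overlapping groups.

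For Nptx1 the groups overlapped in every sum tested. The 3 smallest unadjusted p-values were 0.251 in vascular leptomeningeal cells (-0.46 ± 0.39), 0.264 in L4/5 IT neurons (0.23 ± 0.20) and 0.303 in astrocytes (0.19 ± 0.18), each adjusted p at least 0.877 by edgeR. In L6 CT neurons, its highest class, the control mean was 191 ± 51.6 and the trained mean 196 ± 42.7 TMM-scaled CPM, a log2 fold change of 0.04 ± 0.22.

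**Figure D5:**
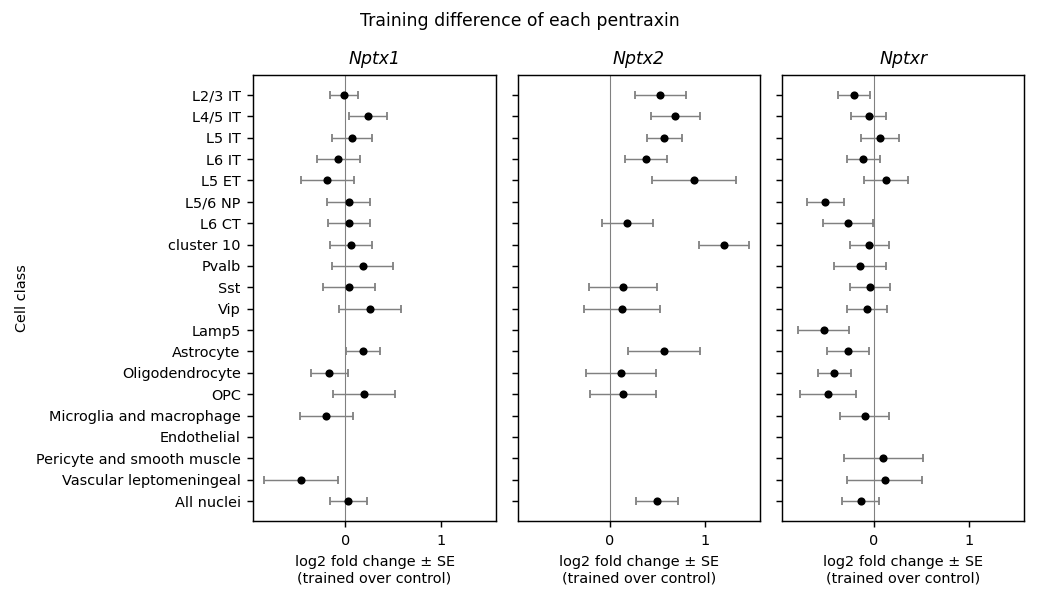
Log2 fold change of trained over control mice for each pentraxin and class, with its SE from edgeR; classes in which a gene did not pass the filter on low counts have no point. Nptx2 is right of 0 in all 13 sums, reaching 1.20 in cluster 10, and Nptxr is left of 0 in 15 of 19; no point passed over all genes.

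Among the partner lists, no member was called between trained and control mice in cluster 10. The 2 of smallest unadjusted p per list were Gria1 (0.32 ± 0.13) and Gria3 (-0.10), Shisa6 (0.66) and Gsg1l (0.62), the receptor gene Adam23 (-0.34) and Lgi2 (-0.69), Adam17 (0.37) and Adam10 (-0.09), Scg2 (0.52 ± 0.16) and Tiparp (0.65 ± 0.20), and Tnr (0.17) and Bcan (-0.21). All had an adjusted p of 0.998 by edgeR. Of the 20 delayed activity genes 14 were higher and 6 lower, with a median of 0.12 against -0.01 over all genes, whereas the immediate-early list had 3 higher and 14 lower of 17 tested, with a median of -0.10.

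The training contrast was also computed in activity-high and in silent nuclei apart, and the trained mice lay above the controls for Nptx2 in the activity-high nuclei of 5 classes. This split was chosen after seeing the data. In activity-high L5 IT nuclei the Nptx2 values were 59.0, 92.9 and 88.4 TMM-scaled CPM in control mice 1, 3 and 5, against 130.4, 129 and 131 in trained mice 2, 4 and 6 (log2 fold change 0.67 ± 0.16, unadjusted p = 0.000642, adjusted p = 0.548 by edgeR). In activity-high nuclei of cluster 10 it was at 8.15, 16.8 and 12.0 in control and 45.4, 37.9 and 36.2 in trained mice (1.60 ± 0.30, unadjusted p = 1.98e-05, adjusted p = 0.0839 by edgeR). The 3 control values there rest on 6, 25 and 15 UMIs and the trained ones on 24, 48 and 14. In silent nuclei the groups overlapped in both classes, and the values were 0.46 ± 0.18 and 0.41 ± 0.38.

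The same order held in other IT classes. In activity-high nuclei of L6 IT neurons the control mean was 57.2 ± 21.3 and the trained mean 121 ± 21.4 TMM-scaled CPM (1.06 ± 0.24, adjusted p = 0.569 by edgeR). L4/5 IT neurons had 24.4 ± 8.26 and 50.5 ± 11.4 (0.97 ± 0.24, adjusted p = 0.999 by edgeR), and L2/3 IT neurons 44.7 ± 9.35 and 80.9 ± 20.9 (0.75 ± 0.22, adjusted p = 0.737 by edgeR). In these 5 classes every trained mouse was above every control, against 5.38% (L2/3 IT), 4.56% (L4/5 IT), 5.09% (L5 IT), 4.41% (L6 IT) and 5.29% (cluster 10) of all genes. In L6 CT neurons the groups overlapped: controls had 35.7, 73.5 and 62.9 and trained mice 99.3, 65.8 and 57.1 TMM-scaled CPM (0.35 ± 0.25, unadjusted p = 0.179), where 4.58% of all genes had the trained mice above. By unadjusted p, Nptx2 was number 2 of 8470 genes in cluster 10, 2 of 6968 in L6 IT, 6 of 10573 in L4/5 IT, 8 of 9555 in L5 IT, 34 of 9009 in L2/3 IT and 1461 of 10789 in L6 CT neurons. No test of a member passed in either kind of nuclei, where edgeR called 0% of all genes, with 0.0118% in activity-high nuclei of cluster 10. In silent nuclei the Nptx2 groups overlapped in all 6 classes, with log2 fold changes between -0.09 and 0.46. Nptx1 and Nptxr overlapped between groups in both kinds of nuclei of these 6 classes.

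The difference itself, activity by training, was tested as an interaction with the mouse as a block. For Nptx2 it was 1.32 ± 0.44 in cluster 10 (unadjusted p = 0.00434), 0.87 ± 0.33 in L6 IT (0.0133), 0.57 ± 0.25 in L6 CT (0.0293), 0.61 ± 0.29 in L2/3 IT (0.0401), 0.65 ± 0.34 in L4/5 IT (0.0585) and 0.27 ± 0.19 in L5 IT neurons (0.165), each by edgeR. All 6 estimates were positive and every adjusted p was at least 0.954, so none passed. Nptxr gave 0.38 ± 0.17 in L4/5 IT neurons (unadjusted p = 0.0289 by edgeR) and passed in no class, and Nptx1 had no unadjusted p under 0.05. edgeR called 0.00927% of all genes in L2/3 IT, 0.01% in L4/5 IT, 0.0199% in L5 IT, 0.0334% in L6 IT and 0% in L6 CT neurons, astrocytes and cluster 10.

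Other measures of the activity-high nuclei were set beside this result. Their summed immediate-early genes overlapped between the groups in all 6 classes, with lower means in trained mice: 1349 against 1618 CPM in cluster 10, 1470 against 1565 in L5 IT and 1693 against 1896 in L6 IT neurons. Median UMI counts, oligodendrocyte markers and astrocyte markers of these nuclei overlapped between the groups in all 6 classes. The mitochondrial share overlapped in 5 and was higher in all trained mice in L6 IT neurons (0.0139% to 0.0449% against 0.0107% to 0.013%). Its part in the Nptx2 difference in L6 IT neurons was not tested.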

How the data were processed

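The deposited file is a single matrix of raw UMI counts (genes by nuclei), in which a shallow and a deep run of each mouse are joined and the barcode suffix gives the mouse. The submitters' processing notes name Cell Ranger 4.0.0 and mm10; the counting of introns is not given in the sources used here. Barcodes with at least 500 genes and under 5% mitochondrial UMIs were kept, and 2391 doublets marked by Scrublet (scanpy 1.11.5, expected share 6%) were left out. Nuclei were clustered with Leiden (leidenalg 0.10.2, resolution 1) on 30 principal components and named from fixed markers; classes with under 20 nuclei in a mouse were not fitted.

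Counts were summed per mouse and class and tested with edgeR 4.0.16 (TMM, filterByExpr, quasi-likelihood test; Benjamini-Hochberg over all genes of a fit, threshold 0.05), with DESeq2 1.42.0 as an alternative under R 4.3.3. Scripts were tested on simulated data. Activity contrasts and interactions had the mouse as a block. Classes were ordered on CPM, with the sign-flip test on log2(CPM + 1). Coding sequences came from GENCODE M21 and were aligned with mafft 7.526.

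Statistics were given for the 3 classes of smallest unadjusted p of each member and contrast, and likeness for the 4 genes of highest correlation; of the partner lists, the called members or the 2 of smallest p were named in the class where a pentraxin had its smallest p. Values given outside this rule, the training split by activity among them, were chosen after they were seen. The members and lists were chosen with earlier results of these data known. Alternatives are given in the closing section.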

Additional observations from a re-analysis of the deposited data

Results flagged for a closer look

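Nptx1 had opposite signs with activity in 2 classes. It was lower in the activity-high L6 IT nuclei of every mouse, with a log2 fold change of -0.27 that did not pass (adjusted p = 0.0974 by edgeR). It was higher in the activity-high L4/5 IT nuclei of every mouse, with 0.27, a call that was lost in 8 of 11 other settings. The difference between these classes was not tested.

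Nuclei that were fitted as no class, and entered only the sum of all nuclei, also carried pentraxin UMIs. The 128 L6b-like nuclei, with as few as 4 in a mouse, held 139 Nptx1, 35 Nptx2 and 32 Nptxr UMIs. Cluster 18, which had a median of 1377 UMIs per nucleus and drew 395 of 417 nuclei from trained mouse 6, held 139 Nptx1, 34 Nptx2 and 116 Nptxr UMIs. Each total is above 3 counts, which is what drew attention to it; whether it exceeds free RNA was not tested.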

How the results depend on the processing

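The number of member-by-class training calls was 0 and became 2 without the filter on low counts (Nptx2 in L5 IT neurons, 0.57, and cluster 10, 1.20) and 1 with the median UMI count as a covariate (Nptx2 in L5 IT neurons, 0.87). It stayed at 0 with DESeq2, with the mitochondrial share as a covariate, with doublets kept, at Leiden resolution 0.5, without each mouse in turn, and in activity-high or silent nuclei alone, a split chosen after seeing the data. Resolution 0.5 gave no cluster 10 and no L6 IT class. Its L4/5 IT class (5983 nuclei) had Hgf and Col26a1 among its leading genes, and its L5 IT class (5577 nuclei) had Galnt14 and Ccnb1. That setting therefore did not retest cluster 10, and its L5 IT class was a broader one. The training-by-class count went from 0 to 1 without the filter. Shares of all genes called are not given for the fits without the filter, with the median UMI covariate or on thinned counts. The 13 activity calls fell to 4 on thinned counts, where fewer genes passed the filter. Thinned to 1000 UMIs, the shares of nuclei with a UMI were 17.6% for Nptx1 in L6 CT, 5.30% for Nptx2 in L5 IT and 6.48% for Nptxr in cluster 10. Of the named fold changes under these settings, 113 training and 89 activity values kept their side of the threshold, 3 training values passed newly, 10 activity values no longer passed, and none changed sign. No paired analysis of control and trained mice was made, because the labels number the mice and name no pairs. Nptx2 counts were too low to be tested in L5/6 NP, Pvalb and Lamp5 neurons, microglia and vascular classes.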
